A study of Cyanidioschyzon merolae strain 10D with 7 samples.

Results

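Peaks of trimethylated histone H3 lysine 27 (H3K27me3) that were called with total histone H3 as the control were mapped along the nuclear chromosomes of the unicellular red alga Cyanidioschyzon merolae. They fill 3 peak lists, 1 per H3K27me3 library, named here by the tags they carry (IP6, IP7 and IP8). All their peaks were used, 3473 of the 7395 peaks in the 6 lists of the series. The other 3 lists set the same libraries against input chromatin and serve as background. A region is a stretch of bases covered in at least 2 of the 3 lists against H3, and 1195 regions were found. The same rule gave 1337 regions against input, and 1439 regions when a base could qualify under either control.

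The cells were strain 10D, grown in shaken liquid culture at 42 °C under continuous light, with no treatment and no mutant. Chromatin was fixed with 1% formaldehyde and immunoprecipitated with an H3K27me3 antibody (C15410195, Diagenode) in 3 biological replicates and with an H3 antibody in 3, and 1 input library came from replicate 1. No label ties a tag to a replicate number, and which H3 library or pool of libraries stood behind each list is not stated. Sequencing depth is unknown, as the lists carry no reads, and the spread over the 3 lists is the only error that can be given.

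H3K27me3 is written by Polycomb repressive complex 2 (PRC2), whose catalytic subunit is E(z), with ESC and Su(z)12 as core partners. In animals and land plants the mark covers silent developmental genes. In several fungi it lies over chromosome ends. Total H3 as a control sets the mark against the local density of nucleosomes, so that a stretch rich in nucleosomes is not taken for one rich in the modification. Input instead sets it against how readily each stretch of chromatin enters the extract.

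The regions covered 2050786 bp, or 12.4% of the summed spans of the 20 chromosomes (16529844 bp). The span of a chromosome is the last base in any peak of the 6 lists, a lower bound on its length. By list, peaks covered 11.96% (IP6), 11.7% (IP7) and 13.3% (IP8) of the spans. Every chromosome carried regions, with 39 on chromosome 1 as the lowest number and 111 on chromosome 20 as the highest. Coverage was highest near both edges of the spans, and the interior held scattered short regions with wide gaps between them.

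**Figure D1:**
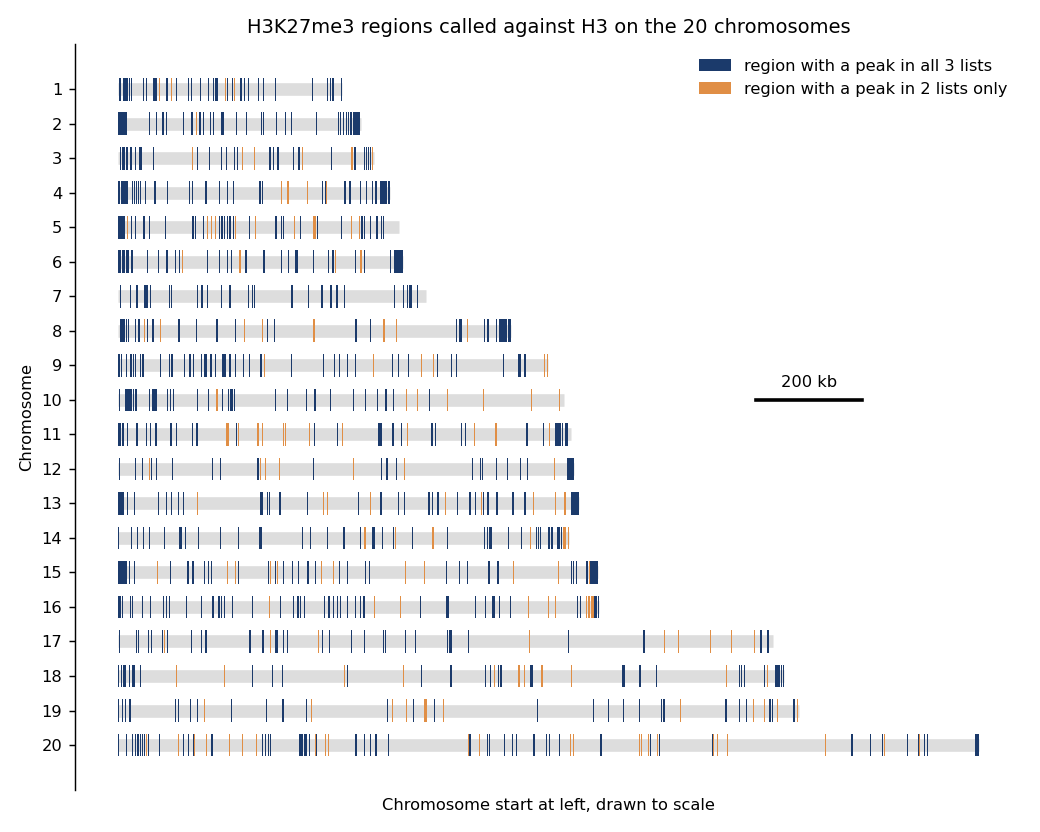
Each grey bar is the span of 1 of the 20 chromosomes, drawn to scale with the start at the left, and each coloured bar is an H3K27me3 region against H3 (blue, a peak in all 3 lists; orange, a peak in 2 lists only). The blue regions number 872 and the orange ones 323. The dense blocks lie at the edges of the spans, and the longest empty stretches lie on chromosomes 19 and 20. The bars have no outline, so very short regions can be too thin to see.

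The 3 lists placed most regions at the same positions. Of the 1195 regions, 872 (73.0%) held a peak of all 3 lists, and these made up 83.7% of the region bases. The regions with peaks of 2 lists only were 148 for IP6 and IP8, 134 for IP7 and IP8, and 41 for IP6 and IP7. IP8, the list with the most peaks, was thus part of most of them. Counted by base, 63.4% of all bases covered in any list were covered in 3 lists, 19.3% in 2 and 17.3% in 1.

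Seen from single peaks, a peak of both other lists was overlapped by 77.2% of peaks in IP6, 79.7% in IP7 and 70.0% in IP8. Peaks that overlapped none of the other lists numbered 77 in IP6, 55 in IP7 and 93 in IP8. The Jaccard index, the shared over the united bases of a pair of lists, was 0.716 for IP6 and IP7, 0.753 for IP6 and IP8, and 0.754 for IP7 and IP8. For the same pairs of lists against input it was 0.802, 0.826 and 0.818. The lists against input share 1 input library and the H3 controls are not known by list, so the part of the control in this difference was not tested.

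Edges were placed closely where all 3 lists agreed. In the 853 regions with exactly 1 peak per list, the outermost and innermost call of an edge lay a median of 102 bp apart. For 49.5% of the edges the range was at most 100 bp, and for 2.81% it was over 1000 bp. The left and right edges had medians of 105 bp and 99 bp. Long regions agreed more often than short ones. Of the 184 regions under 500 bp, 37.5% held a peak of all 3 lists, while the share was 70.4% for 500 to 1000 bp, 79.1% for 1000 to 2000 bp, 86.4% for 2000 to 5000 bp and 91.8% for the 49 regions of at least 5000 bp. A short region can also be the small overlap of peaks that barely meet, so its length is itself partly set by the agreement.

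Region length ran from 22 bp to 17627 bp with a median of 1264 bp. The middle 50% of regions lay between 689 bp and 2160 bp, and 10% were longer than 3367 bp. The distribution was carried by its long members. The 49 regions of at least 5000 bp (4.10% of regions) held 18.6% of the region bases, and 9 regions of at least 10 kb held 6.05%. The 250 longest regions, 20.9% of all, held 50% of the bases. At the short end, 32 regions under 200 bp held 0.223% of the bases.

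The 10 longest regions all lay within 18629 bp of an edge of a span. The longest covered chromosome 6 from 518512 to 536138 and ended 3 bp before the end of the span. It was a single peak in IP6 and IP8 and 2 peaks in IP7, and it ran over CMF185C, CMF187C and CMF188T. Next in length was the region on chromosome 15 from 18 to 15836, a single peak in each list, 99.6% of whose bases were covered in all 3 lists. Chromosome 13 carried the third from 851756 to 866959, over CMM331C, CMM332C, CMM334C and CMM335C, ending 3 bp before the end of its span. Of the 10, those on chromosomes 15 (from 18), 4 (from 4968), 5 (from 42) and 2 (from 20) lay at a start, and those on chromosomes 6, 13, 15 (from 889215), 11, 12 and 18 lay towards a far edge. In each of these 10, at least 92.2% of the bases were covered in all 3 lists. Those on chromosomes 13, 15 (from 889215), 11 and 12 had low mean folds over H3, of 1.14, 1.21, 1.15 and 1.07. With only peaks of a −log10 q of at least 5 kept, their mean coverage over the lists fell to 9.35%, 0%, 16.8% and 0%. The others of the 10 kept their coverage under that filter.

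Long regions also occurred in the interior. Of the 49 regions of at least 5 kb, 30 lay less than 20 kb from an edge of a span, 6 lay 20 to 100 kb away and 13 farther in, where the longest measured 6939 bp. All regions together were divided over the same classes as 124, 276 and 795. The longest interior ones, chosen here after their values were seen, lay on chromosome 18 from 774907 to 781845, on chromosome 11 from 489506 to 496343 and on chromosome 13 from 266467 to 273273, each with a peak in all 3 lists. On chromosomes 14, 17 and 19 the longest region of the chromosome was itself such an interior one. The region on chromosome 14 from 477536 to 484190 (6655 bp) covered parts of CMN193C and CMN194C and had a peak in each list. On chromosome 17, the region from 294603 to 300492 (5890 bp) overlapped no gene. The longest region of chromosome 19, from 576262 to 582216 (5955 bp), had peaks in IP6 and IP8 and none in IP7, so it rested on 2 lists.

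Spacing was uneven. The 1175 gaps between neighbouring regions had a median of 7509 bp and a mean of 12304 bp, and their SD was 1.31 times their mean. Gaps under 2000 bp made up 13.4% of the total. At the other extreme, 209 gaps of at least 20000 bp (17.8%) held 54.4% of all bases between regions. With regions less than 2 kb apart joined, 1037 chains remained, and 908 of these were a region standing alone. The longest chain was 6 regions on chromosome 20 between 25839 and 46614, where 73.0% of the bases were in regions. The 5 gaps under 500 bp were each bridged by a peak of 1 list, so they reflect the rule of at least 2 lists rather than separate peaks.

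**Figure D2:**
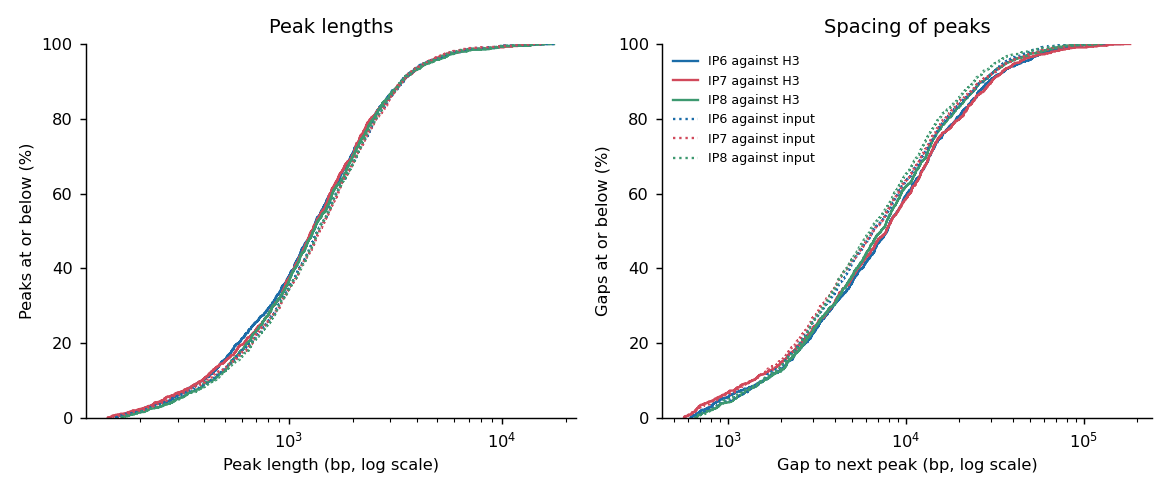
Cumulative share of peaks by length (left) and of gaps between neighbouring peaks of a list (right), on log axes, for the 3 lists against H3 (solid) and the 3 against input (dotted). Median gaps were 7859 bp (IP6), 7769 bp (IP7) and 7243 bp (IP8) against H3, and 6568 bp, 6570 bp and 6303 bp against input, so the solid curves lie to the right in the middle of the plot.

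The 5 longest gaps lay on chromosomes 19, 20, 17, 12 and 18, between 47.8% and 91.4% of the way along the span. The longest ran on chromosome 19 from 613625 to 788041 (174417 bp), a stretch with 57 genes. Single lists were not empty there, with 1 peak in IP6, 6 in IP7 and 4 in IP8, but no base was covered in 2 of them. Against input the same stretch held 8, 6 and 8 peaks and 13530 bp of regions. It contained CMS262C, a ribosomal protein L23 gene that the study used as a negative locus, 48975 bp from the nearest region. The second ran on chromosome 20 from 1147264 to 1311158 (163895 bp), with 4 peaks in IP6, 0 in IP7 and 3 in IP8, against 8, 10 and 11 peaks in the input lists. The others lay on chromosome 17 from 848386 to 982619, on chromosome 12 from 540547 to 666366 and on chromosome 18 from 1024166 to 1144981. IP7 had no peak base in the gaps on chromosomes 20, 12 and 18, and in all 5 gaps the input lists together held more peaks than the H3 lists. These gaps were chosen for their length among regions against H3, so this is a description and not a comparison of controls.

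Small chromosomes had more of their bases in regions. Chromosome 4 had the highest share of its span in regions, at 21.6%, and chromosome 19 the lowest, at 6.93%. In the single lists chromosome 4 was covered to 20.95% (IP6), 20.2% (IP7) and 22.7% (IP8), and chromosome 19 to 6.93%, 6.06% and 7.86%, so these ranges were far apart. Across the 20 chromosomes the share in regions and the span had a Pearson r of -0.82 and a Spearman rho of -0.81. Without chromosomes 19 and 20, whose spans lie farthest from the median, r was -0.86. Coverage was highest near the edges, which make up more of a small chromosome, so size and distance from the edges cannot be fully told apart. Without the outer 50 kb at both edges r was -0.77. The points share the same 3 libraries and the span is itself taken from peaks, so r is given as a description.

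Density and length of regions were both lower on longer chromosomes, while the number of regions had r = 0.79 with span. Density ran from 11.2 regions per 100 kb on chromosome 5 down to 4.63 on chromosome 18, with r = -0.70 against span. The median length of regions ran from 2018 bp on chromosome 6 down to 1002 bp on chromosome 10, with r = -0.47. Median gaps had r = 0.56 and ran from 4164 bp on chromosome 3 up to 10396 bp on chromosome 19. Chromosomes of like span still differed. Chromosomes 9 and 12 span 810123 bp and 859103 bp, yet 14.1% ± 0.566 of chromosome 9 and 8.14% ± 0.628 of chromosome 12 lay in peaks (mean and SD of 3 lists). Chromosome 9 carried 75 regions with a median length of 1079 bp, and chromosome 12 carried 46 with a median of 1424 bp.

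**Figure D3:**
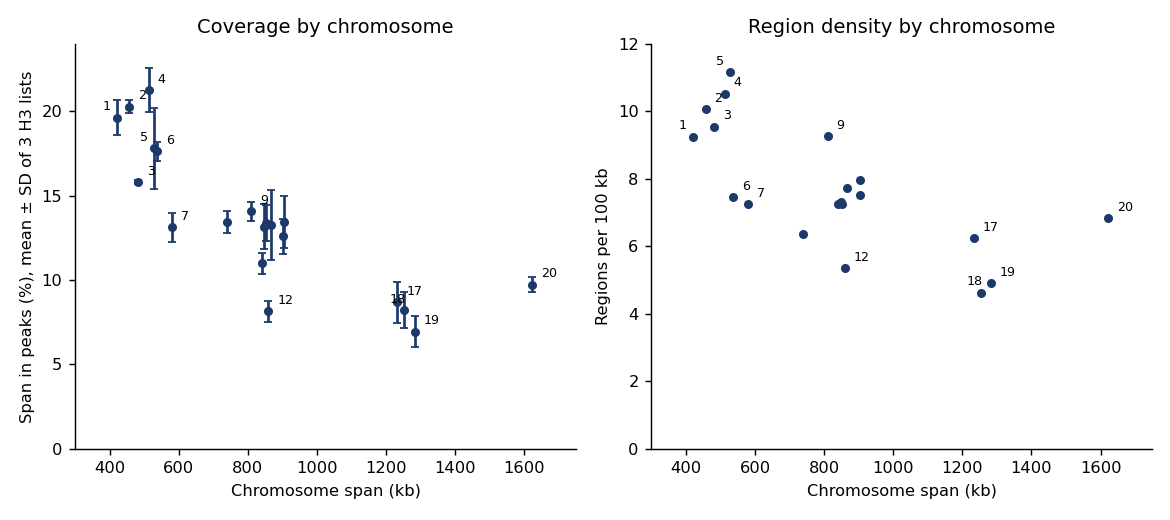
Share of each chromosome's span in peaks against H3 (left, mean ± SD of 3 lists) and number of regions per 100 kb (right), against chromosome span in kb. Chromosomes 1 to 5 are at the upper left, at 15.8% to 21.3%, and chromosomes 17 to 20 at the lower right, at 6.95% to 9.73%, while chromosome 12 lies below others of its size.

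The chromosome shares were alike in the 3 lists, with a Pearson r from 0.957 to 0.969 between those of any pair. Several of the larger chromosomes had the least coverage relative to input. The share in regions against H3 divided by that against input was 0.731 on chromosome 19 and 0.758 on chromosome 17, and 0.983 on chromosome 9 and 0.966 on chromosome 14. Over the 20 chromosomes this ratio had r = -0.59 with span. Both shares come from the same H3K27me3 libraries.

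At 18 of the 20 chromosome starts a region lay within 2 kb, while 26% of all 2 kb windows of the spans held a region base. The median distance from the first base of the chromosome to the first region was 99.5 bp. Chromosomes 3 and 7 were the exceptions, with first regions 4019 bp and 3722 bp away. On chromosome 7 the lists did not agree, as IP8 alone had a peak 156 bp from the start. Of the 20 first regions, 12 were longer than the median region, and all 20 had a peak in each of the 3 lists. The smallest was 225 bp on chromosome 17 and the largest 15819 bp on chromosome 15.

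Coverage fell steadily with distance from the start. Peaks covered 66.1% ± 2.34 of the first 2 kb, 54.1% ± 1.27 from 2 to 5 kb, 48.3% ± 0.745 from 5 to 10 kb, 40.1% ± 1.37 from 10 to 20 kb and 22.6% ± 0.911 from 20 to 50 kb (mean and SD of 3 lists). Beyond 200 kb, with the last 20 kb of the spans left out, coverage was 9.26% ± 0.798. The lists against input covered 66.1% ± 2.33 of the first 2 kb and 11.4% ± 0.513 of the bases beyond 200 kb (SD, n = 3). Near the start both controls thus gave like values, and the lists against H3 were lower farther in.

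**Figure D4:**
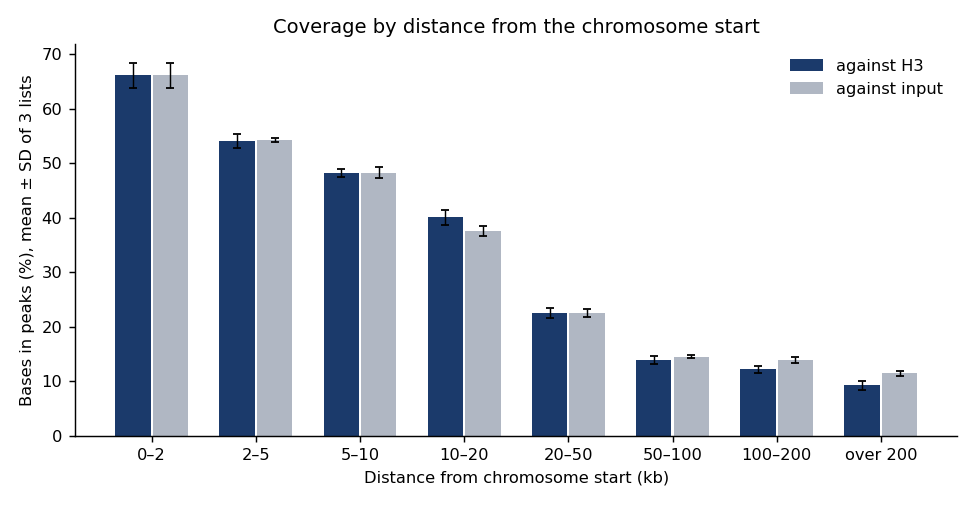
Share of bases in peaks by distance from the chromosome start in kb, as the mean ± SD of the 3 lists against H3 (dark) and of the 3 lists against input (light), with the last 20 kb of each span left out of the class over 200 kb. Coverage against H3 falls from 66.1% in the first 2 kb to 9.26% beyond 200 kb, and from 100 kb on the dark bars are below the light ones.

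Starts were far from equal. The share of the first 20 kb in regions ran from 6.06% on chromosome 7 up to 90.4% on chromosome 4, and chromosomes 12, 17 and 14 also stayed low at 8.79%, 9.74% and 10.2%. On chromosomes 7 and 14 the first 20 kb were covered less than the chromosome as a whole. The lists agreed on this spread. On chromosome 4 the first 20 kb were covered to 90.5% (IP6), 89.99% (IP7) and 90.5% (IP8), and on chromosome 7 to 6.07%, 6.08% and 8.28%. Taken over all starts, the share of the first 20 kb in regions was 46.8%, or 4.44 times the 10.53% found elsewhere (the last 20 kb of each span left out).

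The far edges of the spans were covered to a like degree. Peaks covered 51.0% ± 4.02 of the last 20 kb and 46.8% ± 1.22 of the first 20 kb (mean and SD of 3 lists). Over 50 kb the values were 31.3% ± 2.43 at the far edge and 32.3% ± 1.03 at the start. Since each span ends where its last peak ends, the far edge is placed on a peak by construction and its coverage is an upper value. On 2 chromosomes (7 and 14) the last gene of the table ended past the span, so there the chromosome goes on beyond it. The paper lists the far ends of these and of chromosome 16 as lying kilobases from the closest H3K27me3 domain.

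The fold enrichment that the authors listed for each peak, a mean ratio of H3K27me3 to H3 signal, did not follow coverage. In the first 10% of the spans the median fold was 2.43 (IP6), 2.11 (IP7) and 2.46 (IP8). In the last 10% it was 1.41, 1.28 and 1.43, although coverage was 22.4%, 21.8% and 25.1% there and 23.4%, 23.98% and 25.04% in the first 10%. Peaks in the last 20 kb were also no shorter than peaks in the first 20 kb, with medians of 2221 bp ± 116 and 1711 bp ± 180 (mean and SD of 3 lists). The difference in fold was not particular to H3 as the control. In the lists against input (IP6, IP7, IP8) the median fold was 2.63, 2.275 and 2.635 in the first 10% and 1.43, 1.40 and 1.53 in the last. Of the 103 regions with a mean fold of at least 3, 71 started in the first 100 kb, and 72 lay within 100 kb of either edge. Over all 1195 regions, 124 lay less than 20 kb from an edge, 276 lay 20 to 100 kb away and 795 farther in. From a start, 72 of all regions lay at 20 to 50 kb, 84 at 50 to 100 kb and 159 at 100 to 200 kb. The nearer classes held 12, 13, 14 and 24 (up to 2, 5, 10 and 20 kb). Beyond 200 kb lay 761, with the last 20 kb of the spans left out.

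A check on the lists themselves bears on how these folds can be read. A peak with the same tag in the H3 and the input list rests on the same H3K27me3 reads. Peaks that matched with a reciprocal overlap of at least 90% numbered 622 (IP6), 585 (IP7) and 715 (IP8). Their folds over H3 and over input had r = 0.893, 0.882 and 0.900 in the first 10% of the spans (n = 130, 119 and 129 peaks). In the last 10% r was 0.168, 0.191 and 0.124 (n = 92, 97 and 112). The −log10 q of the same pairs had r = 0.920, 0.930 and 0.928 in the first 10% and 0.252, 0.237 and 0.130 in the last. The typical gap between the folds over H3 and over input, the median of the absolute log2 ratio, was 0.143, 0.153 and 0.127 in the first 10% and 0.356, 0.251 and 0.314 in the last. Between different lists against H3, r for matched peaks was 0.951 to 0.963 in the first 10% and 0.217 to 0.668 in the last. Between these parts it ran from 0.356 to 0.862 for IP6 and IP7, from 0.396 to 0.838 for IP6 and IP8, and from 0.749 to 0.920 for IP7 and IP8. For the same tag against H3 and input it ran from -0.06 to 0.811 there.

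**Figure D5:**
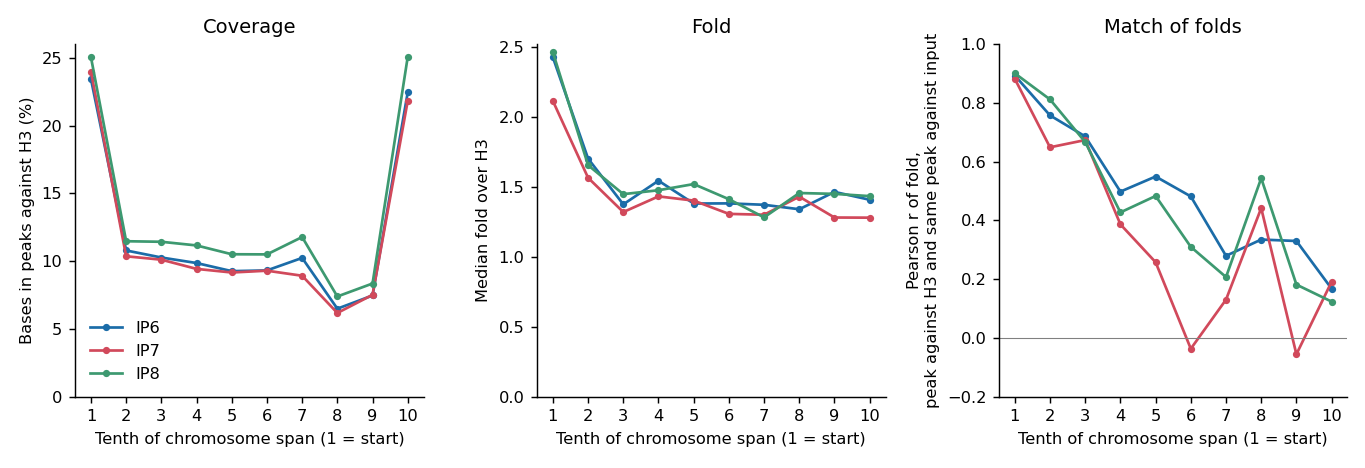
For each list against H3 (IP6, IP7, IP8) and each of 10 equal parts of the chromosome spans, from the start (1) to the far edge (10): share of bases in peaks (left), median listed fold over H3 (middle) and Pearson r between the folds over H3 and over input of matched peaks with the same tag (right). Coverage is high in both outermost parts, at 21.8% to 25.1%, while fold is above 2 in the first alone (2.11 to 2.46), and r lies between 0.882 and 0.900 there and between 0.124 and 0.191 in the last.

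For peak positions, the share of peaks found in all 3 lists was 92.9% (IP6), 90.4% (IP7) and 88.0% (IP8) in the first 10% of the spans and 74.7%, 77.6% and 65.0% in the last. A fold under 1.1 was listed for 141 peaks in IP6 (12.4%), 161 in IP7 (14.5%) and 124 in IP8 (10.1%), which is close to no enrichment. Since agreement of the listed folds was highest at the starts and lowest, for most pairs, in the later parts of the spans, positions and lengths carry the description here. The cause of the drop in agreement was not tested.

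With that limit, the highest folds among regions with a peak in all 3 lists were all within 48541 bp of a chromosome start. The region on chromosome 4 from 22 to 3877 had folds of 5.23 (IP6), 4.11 (IP7) and 4.91 (IP8), and the one on chromosome 13 from 30 to 4685 had 5.30, 3.19 and 5.00. The third, on chromosome 14 from 5744 to 5913, was only 170 bp long and had 4.86, 3.86 and 4.68. Chromosome 5 held 3 of the 10, from 39014 to 39573, from 42761 to 43356 and from 47509 to 48541, none of them over a gene. In 89 of the 96 regions with a mean fold of at least 3 and a peak in all 3 lists, IP7 had the lowest fold, and over all 872 regions with a peak in each list it was lowest in 521 (59.7%). The median ratio of the fold in IP6 to that in IP7 was 1.28 in the 96 regions and 1.11 in the 872. The highest fold in a list was 5.92 in IP6, 4.12 in IP7 and 5.00 in IP8. Over the regions, fold and length had a Spearman rho of -0.08.

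Regions lay mostly outside the genes of the table used. That table has no class for repetitive elements, and the paper counts more genes in its own annotation. The paper also reports the mark over repetitive elements, so bases outside genes here can include repeats and unlisted genes. The gene table used (RefSeq, assembly ASM9120v1) is named differently from the reference of the peaks, so its frame was checked by shifting it along the regions. Region bases inside genes were fewest, at 15.3%, with no shift, and 48.3% and 49.0% with shifts of -3000 bp and 3000 bp. Genes take up 50.0% of the spans. Of the 1195 regions, 916 (76.7%) overlapped no gene, 222 overlapped 1 gene, 48 overlapped 2 and 9 overlapped 3 or more.

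Longer spaces between the listed genes, which can hold repeats, were covered to a greater share. Intergenic stretches under 500 bp were covered to 1.26%, those of 500 to 1000 bp to 3.40%, those of 1000 to 2000 bp to 6.75%, those of 2000 to 5000 bp to 26.0% and those of at least 5000 bp to 42.0%. Of the 137 longest stretches, 82.5% held a region base. A region seldom filled its space, since the median share covered was 44.6% among stretches that held one. Region edges outside genes lay a median of 760 bp from the nearest gene boundary, and all bases outside genes a median of 544 bp.

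A gene counted as covered where 2 lists or more each spanned 50% or more of its length, which held for 180 of 5373 genes (3.35%), 100 of them in full. They were 165 protein-coding genes (3.44% of that class), 14 listed as misc_RNA (2.69%) and 1 tRNA (2.70%), with 0 of 12 rRNA genes. The 180 covered genes fell into 142 runs of 1 or more neighbours, and 112 of the genes had no covered neighbour. Whether covered genes lie side by side more often than a share of 3.35% would give was not tested. The longest runs were 4 neighbouring genes each, CMD187C to CMD191C, CMM002C to CMM005C and CMM331C to CMM335C. Of the 105 genes that start in the first 20 kb, 21 (20%) were covered, and of the other genes 3.02%. By chromosome the share ran from 6.78% on chromosome 1 down to 0.937% on chromosome 19.

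The locus that the study used as a positive control, CMA095C, a gene for a MADS domain transcription factor, was covered over 100% of its length in each list. It lies in the interior of chromosome 1, and its folds were 1.43, 1.27 and 1.34, under the limit on folds above. The negative loci CMK028C, a gene for the translation factor EIF4A, and CMS262C were covered to 0% in each list, with the nearest region 827 bp from CMK028C. The PRC2 genes themselves, CMQ156C for E(z), CMK173C for ESC and CML082C for Su(z)12, were also covered to 0%, with the nearest regions 1762 bp, 6723 bp and 3684 bp away. CMR153C, related to the plant homeobox gene STM, had a coverage of 0% and lay 40171 bp from a region.

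Genes with protein splicing domains, of the intein and Hedgehog type, were followed as a group that the study picked on these libraries, so its coverage is not independent evidence. Of the 5, 3 passed the rule of 50% in at least 2 lists, against 3.35% of all genes. All 5 lie near an edge of a span, and of the genes that start in the first 20 kb 20% passed. CMH283C was covered over 99.1% (IP6), 100% (IP7) and 100% (IP8) and CMR506C over 84.0%, 83.5% and 84.0%. CMS508C passed with 74.2% in IP6 and 74.8% in IP8 but had 0% in IP7. CMH001C reached 41.3%, 47.8% and 47.9% and CMP358C 49.7%, 39.9% and 39.9%, below 50% in each list. CMH001C lies near a start, at 0.182% of the span, and the others near a far edge, at 99.25% to 99.74% of it.

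Among covered genes, the 10 with the highest fold were on chromosomes 16, 13, 2, 15, 4, 5 and 11, all in the first 10.9% of a span. CMB002C and CMB003C on chromosome 2 lay under a single peak in each list and had folds of 4.94, 3.78 and 4.55. CMO001C and CMO003C shared the long region at the start of chromosome 15, with 4.73, 3.57 and 4.43. CMP002C on chromosome 16 was covered to 46.2% in IP6, 83.5% in IP7 and 100% in IP8, so its coverage differed more between lists than that of the others.

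Against H3, spacing was wider and a larger share of peak bases lay in genes and near starts than against input in all 3 tags. None of these differences could pass 0.05, since the smallest p of an exact test of 3 lists against 3 is 0.1. Median gaps between peaks were 7624 bp ± 333 in the lists against H3 and 6480 bp ± 154 in those against input (SD, n = 3 each). They differed by 1144 bp (exact two-sided permutation p = 0.1, adjusted p = 0.133). The lists against H3 also held fewer peaks on the same spans, 1158 ± 63.6 against 1307 ± 43.3 (SD, n = 3 each). The part of peak number in the wider gaps was not tested. Of the peak bases, 15.4% ± 0.185 against H3 and 13.8% ± 0.116 against input lay inside genes (SD, n = 3 each), a difference of 1.58 percentage points (exact permutation p = 0.1, adjusted p = 0.133). The first 20 kb held 9.23% ± 0.441 of the peak bases against H3 and 7.79% ± 0.176 against input, a difference of 1.44 points (SD, n = 3 each, exact permutation p = 0.1, adjusted p = 0.133). In each of these 3 measures the values of the 3 H3 lists lay above those of the 3 input lists. Lists of a tag share an H3K27me3 library, and paired within tags each measure had an exact sign flip p of 0.25, the smallest possible. The larger shares went with fewer peak bases elsewhere. Peak bases inside genes came to 312446 bp ± 20670 against H3 and 323017 bp ± 9311 against input, and those outside genes to 1721185 bp ± 120082 against H3 and 2019978 bp ± 78279 against input (SD, n = 3 each). Of the first 20 kb, 46.8% ± 1.22 lay in peaks against H3 and 45.6% ± 0.906 in peaks against input, and of the rest 10.4% ± 0.767 against H3 and 12.4% ± 0.497 against input (SD, n = 3 each).

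Peaks of at least 5 kb made up 4.02% ± 0.305 of peaks against H3 and 3.85% ± 0.222 against input (SD, n = 3 each), a difference of 0.175 points that was smaller than the spread between lists (exact permutation p = 0.5, adjusted p = 0.5). Within tags the list against H3 had the larger share in 3 of 3 (exact sign flips p = 0.25, the smallest possible). With a limit of 3 kb the difference turned to -0.532 points (exact permutation p = 0.1). An exact test of 3 lists against 3 cannot give a p under 0.1, and none of the 4 differences passed 0.05. The 3 lists against input share 1 library, so an effect of the control and one of that library cannot be told apart. With a fold of at least 2 the difference in gaps turned to -1076 bp (exact permutation p = 0.2).

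Nearly all regions against H3 had a counterpart against input. Only 45 of 1195 (3.77%) touched no peak of any input list, and these were short, with a median of 506 bp, and 14 of them had peaks in all 3 H3 lists. In the other direction 107 of 1337 regions against input (8.00%) touched no peak against H3, and their median length was 571 bp. These were unevenly spread, with 15 of 72 on chromosome 18 and 12 of 63 on chromosome 8, but 1 of 64 on chromosome 14 and 1 of 50 on chromosome 2.

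The stretches of at least 500 bp that were in regions against H3 and in no list against input numbered 39 and came to 36563 bp. The longest, on chromosome 12 from 267046 to 269226, lay to 95.2% inside CML120C, had peaks in IP6 and IP8 with folds of 1.04 and 1.06, and touched no input peak. The next, on chromosome 18 from 1169479 to 1171112, overlapped no gene and had folds of 1.95, 1.63 and 1.45. On chromosome 4 the stretch from 17958 to 19186 lay wholly inside CMD005C and prolonged a region that both controls shared. Of the 10 longest, 2 bordered an input peak, and 4 lay mostly or wholly inside a gene.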

How the data were processed

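Chromatin immunoprecipitation with sequencing was performed by the authors on 7 libraries, 3 of H3K27me3, 3 of H3 and 1 of input. Per the submitters' processing notes and methods, paired-end reads were checked with FastQC 0.11.4, aligned with Bowtie2 2.2.6 (reference: C. merolae Genome Project v3), and broad peaks were called per library with MACS2 2.1 without clonal reads, with bedtools 2.17 for overlaps. For each peak the deposited lists give a position, a fold over the control (a ratio) and a −log10 of the p-value and q-value, as the authors' software wrote them. The fold and the −log10 q were used as deposited, to describe and filter peaks. The number of columns that fitted no group was 0.

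Positions are counted from 1 on that reference. Masks of covered bases, regions, gaps and overlaps were computed with Python 3.11.15 and numpy 2.4.6, and drawn with matplotlib 3.10.9. The routines were tested on simulated lists with known regions. Genes came from the RefSeq table of ASM9120v1 (5373 nuclear genes), for overlaps and names only, and none of its coordinates are printed. Per chromosome, the shift with the fewest region bases in genes lay between -300 bp and 400 bp. Correlations run over chromosomes or peaks that share libraries and carry no p.

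Differences between controls were tested over lists by exact two-sided permutation with Benjamini-Hochberg adjustment over 4 tests. Lists with the same tag come from the same H3K27me3 library, which pairs them, so sign flips within tags were the paired alternative. Regions and genes were named by rule: the 10 longest regions, the 10 with the highest mean fold in all 3 lists, the longest of each chromosome and the one nearest each start, the 5 longest gaps, the 10 longest stretches against H3 alone, the 10 covered genes with the highest fold, and 12 genes from the study. Members and lists were chosen with earlier results of these data known. Alternatives were a fold of at least 2, a −log10 q of at least 5, other overlap rules, merged peaks, other windows and leaving out each list.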

Additional observations from a re-analysis of the deposited data

How the results depend on the processing

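Depth is unknown and limits every count, because peak number depends on it. Filters on fold or q rest on values that agreed less between lists away from the starts than at them, and the causes of the shifts below were not tested. With a fold of at least 2 there were 292 regions over 3.25% of the span, with a median length of 1309 bp, a median gap of 9007 bp, a ratio of first 20 kb to rest of 17.8, 60.8% of peaks found in all 3 lists, 66.9% of region bases in all 3, a mean Jaccard index of 0.595, r with span of -0.72, 14 starts with a region within 2 kb and 49 covered genes, and the difference in gaps was -1076 bp. Where the −log10 q had to reach 5, 816 regions and 126 covered genes were left, the share of span was 8.66%, the median length 1296 bp, the gap 8411 bp, the ratio 6.35, peaks in all 3 lists 65.4%, bases in all 3 lists 69.3%, the Jaccard index 0.645 and r -0.78.

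Merging peaks less than 1000 bp apart gave a median length of 1303 bp and a gap of 7993 bp. Bases in all 3 lists gave 891 regions, 9.51% of the span, 1304 bp, 8735 bp and a ratio of 5.68, and bases in at least 1 list gave 1387 regions, 14.99%, 1312 bp, 6559 bp and 3.81. Regions of at least 200 bp had a median length of 1302 bp. Windows of 10 kb and 50 kb gave ratios of 4.72 and 3.32. A reciprocal overlap of at least 50% left 67.8% of peaks in all 3 lists, any overlap with a gene gave 339 genes, and without the outer 50 kb at both edges r was -0.77. The difference in long peaks was -0.532 points with a limit of 3 kb (exact permutation p = 0.1).

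Leaving out each list in turn, which makes a region a base covered in both remaining lists, gave 931 to 1028 regions, 9.86% to 10.8% of the span, lengths of 1283 to 1303 bp, gaps of 8017 to 8378 bp, ratios of 5.02 to 5.48, 81.9% to 86.1% of peaks in both lists, Jaccard indices of 0.716 to 0.754, r from -0.83 to -0.82 and 153 to 162 genes. The share of region bases in all 3 lists could not be recomputed from 2 lists. Under the replicate block (sign flips within tags) the differences kept their sizes (1144 bp, 1.58, 0.175 and 1.44 points), each with an exact p of 0.25, the smallest it can give. Of 306 values for 51 named genes and regions, 26 moved by over 1 SD of the lists, 17 of them with the fold filter and 9 with the q filter, all downwards.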
